A study of Mus musculus with 10 samples.

Results

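Nuclear receptors are transcription factors whose activity is set by small lipid-soluble ligands such as bile acids, oxysterols, fatty acids, steroids, thyroid hormone and drugs. Most bind DNA in or beside their target genes as pairs, often with a retinoid X receptor as the partner, and they recruit coactivators when a ligand is bound and corepressors when it is not. In the liver they are known for controlling bile acid synthesis, drug clearance, fatty acid oxidation, lipogenesis and the response to fasting hormones. Their own transcripts are only 1 layer of that control, since the ligand, the partner and the coregulators also count. The genes described here are 38 members of the superfamily taken by name, among them the receptors of bile acids, drugs, oxysterols, fatty acids, retinoids, thyroid hormone and steroids. Of these, 37 had a probe set assigned to a single gene symbol, out of 18193 genes so measured. Nr1h2, which encodes LXRbeta, had none, and its expression is not analysed here.

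Livers came from 10 lactating mice of the QSi5 strain. In the HGI group, 5 mice were kept on feed of high glycaemic index, which contained 51.4% (by weight) glucose and a gross energy of 15.6 MJ/kg. In the LGI group, 5 mice had feed of low glycaemic index, with 16.3 MJ/kg and, in place of the glucose, 51.4% of a starch named Hi-Maze that the labels call high amylase starch. Both diets were eaten from pregnancy until peak lactation, when the livers were taken; their ages are not stated. Energy balance is labelled positive for every HGI mouse and negative for every LGI mouse, so that carbohydrate type, energy density and energy balance cannot be told apart. Levels are log2 expression values of 1 Affymetrix array per mouse, and each difference is HGI minus LGI on that log2 scale. Where several probe sets read a gene, the brightest by its mean over the arrays stands for it. A mean of at least 6 log2 marks the genes called well measured below. Because probes differ in affinity, the level of 1 gene is not set against that of another.

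Array HGI 1 had a narrower spread of values than the other arrays (SD 2.16 against 2.26 to 2.31), and array LGI 4 had Lcn2, an acute phase gene, at 13.38 against 6.65 to 7.89 in the other LGI mice. Among the 20 well measured receptors, HGI 1 was the lowest HGI array for 13 and the highest for 0, and it was the lowest for 69.3% of all well measured genes. LGI 4 was the lowest LGI array for 8 receptors and the highest for 4, and it was the lowest for 34.1% and the highest for 30.5% of all well measured genes. With 1 array left out in turn, 28 of the 37 receptor differences moved by over 1.5 times at some array and 11 changed sign. Of 188 other genes examined, such as targets, coregulators and cell markers, 131 moved so and 61 changed sign. All 7 measured hepatocyte markers were well measured, with a list mean between 13.7 and 13.8 on every array, whereas 0 of 5 bile duct, 1 of 7 lymphocyte, 1 of 5 adipocyte and 2 of 6 erythroid markers reached 6 log2. The Kupffer cell markers were higher in HGI for 11 of 11 genes (median difference 0.28, 0 past the adjusted threshold in limma, 1 at an unadjusted p under 0.05 and 6 without HGI 1 and LGI 4), with a list mean of 7.42 to 8.24 on the HGI arrays and 7.13 to 7.87 on the LGI arrays. The sinusoidal endothelial markers were higher for 10 of 10 genes (median 0.20, 0 past, 2 at an unadjusted p under 0.05), with list means of 6.34 to 6.99 and 6.26 to 6.62, and the 10 stellate cell markers had a median of 0.12 with 0 past and 3 at an unadjusted p under 0.05. Of the 6 erythroid markers 5 were higher in HGI (median 0.29, 0 past, 3 at an unadjusted p under 0.05), with list means of 4.90 to 5.64 and 4.38 to 4.95. Slc4a1, the anion exchanger of red cells, had separate ranges (2.25, adjusted p = 0.0625), and its second probe set rose by 2.57 (adjusted p = 0.0211). Of all genes, 9.30% had an unadjusted p under 0.05, or 10.9% without HGI 1 and LGI 4, and 2.17% had separate ranges. Higher in HGI, at any p, were 7611 of 18193 genes. The part of these cell markers in the results below was not tested. In whole liver, fewer cells of a type and less RNA per cell cannot be told apart.

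No receptor transcript differed between the diets past the adjusted threshold. Over all 45037 probe sets, 29 passed an adjusted p of 0.05 (limma, Benjamini-Hochberg), which is 0.0644%, and 15 of 18193 genes did so, which is 0.0824%; the count among the 37 receptors was 0. The smallest adjusted p of a receptor was 0.508. At an unadjusted limma p under 0.05, 3 of 37 receptors (8.11%) stood out, Nr1i2 and Nr2f2 lower in HGI and Ppard higher, against 9.30% of all genes (3.07% higher and 6.23% lower). Among the well measured genes these shares were 2 of 20 receptors, or 10%, and 13.6% of all genes. The receptors' shares were thus near those of all genes. None of the 37 had separate ranges in the 2 diets, against 2.17% of all genes. The median difference was 0.014 over the 37 receptors and -0.025 over all genes, and the median size of a difference was 0.128 for receptors and 0.0843 for all genes. Differences ran from -0.39 (Nr1i2) to 0.34 (Ppard), with 21 above 0 and 16 below, against 7611 and 10582 of all genes.

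The intervals bound how large a difference could have been missed at the probe set that stands for each receptor. They are not adjusted for the number of receptors. The 95% interval lay within a 2-fold difference in either direction for all 37 receptors, and within 1.5-fold for 31 of them, including 15 of the 20 well measured. The widest reach was an upper bound of 0.82 for Nr0b2 and a lower bound of -0.76 for Nr1i2. Other well measured probe sets of these receptors could reach further. A second Nr1i2 probe set had a lower bound of -0.83. Another Hnf4a probe set had an upper bound of 0.81, against 0.061 at the first. A p that misses the threshold does not show equal levels, and for the 17 receptors below 6 log2 a dim probe set may understate a change.

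**Figure D1:**
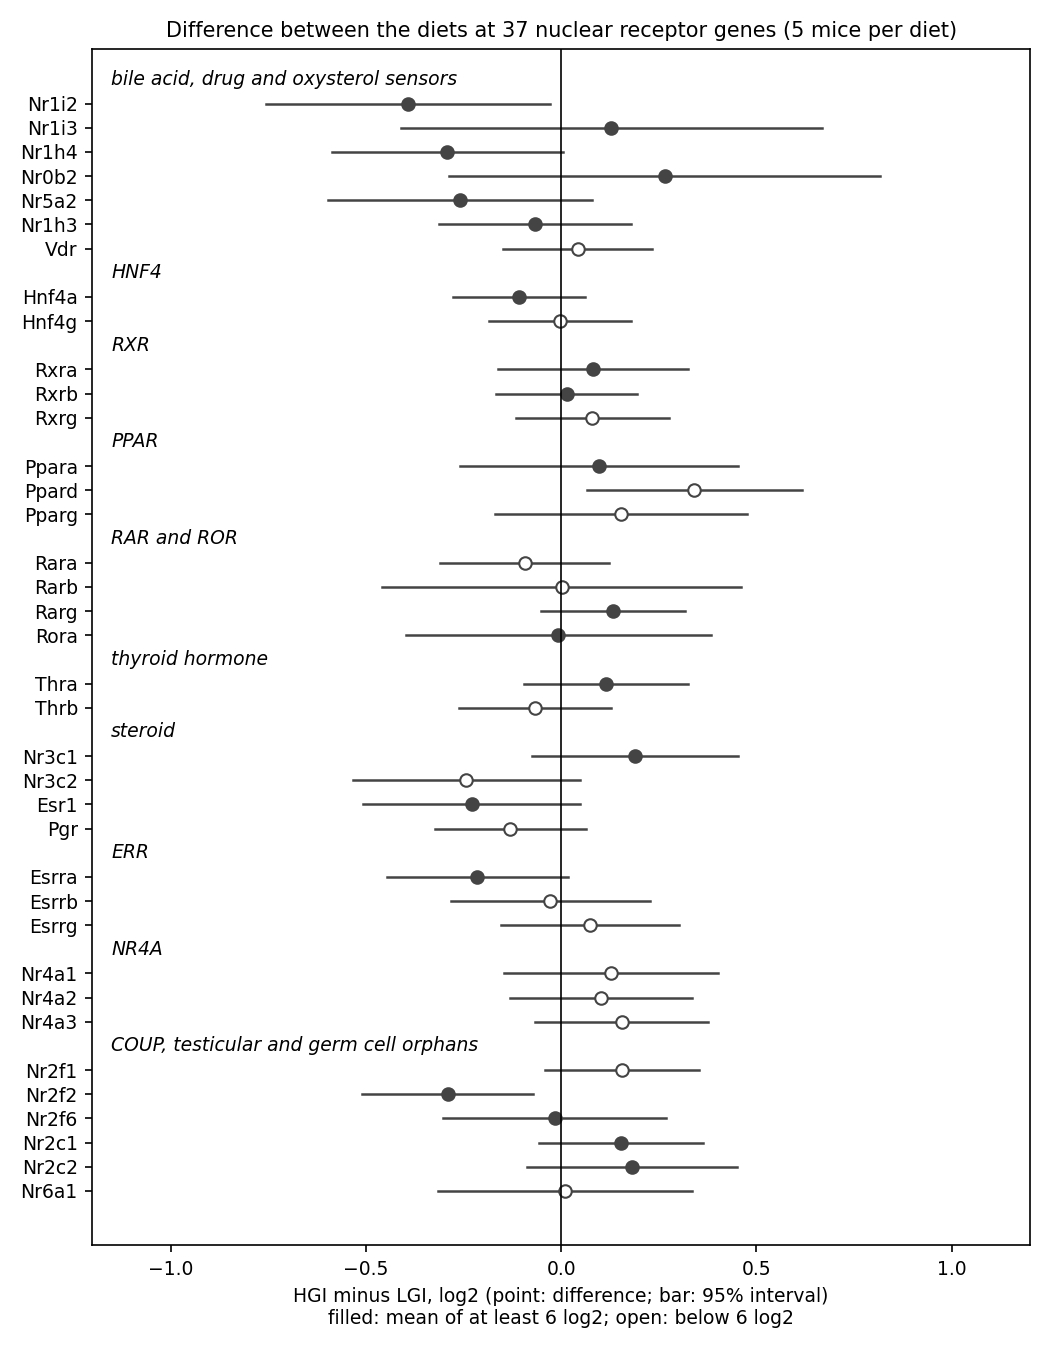
Difference HGI minus LGI on the log2 scale for 37 nuclear receptor genes, grouped by role, with points for the limma difference and bars for the 95% interval; filled points have a mean of at least 6 log2 and open points lie below it. All intervals stay within a 2-fold difference (-1 to 1), and those of Nr1i2, Nr2f2 and Ppard do not cross 0.

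The well measured receptors were Nr1i2, Nr1i3, Nr1h4, Nr0b2, Nr5a2, Nr1h3, Hnf4a, Rxra, Rxrb, Ppara, Rarg, Rora, Thra, Nr3c1, Esr1, Esrra, Nr2f2, Nr2f6, Nr2c1 and Nr2c2. Thra (mean 6.12) and Rarg (6.14) lay just above 6 log2, and Pparg (5.72) and Rxrg (5.62) just below. Vdr, Hnf4g, Pgr and Nr2f1 were below the median of all probe sets on every array.

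The first group senses drugs and other foreign compounds. Nr1i2 encodes PXR, which binds many drugs and bile acids and induces drug-metabolizing enzymes. Its level was 6.12, 6.25, 6.98, 6.56 and 6.14 in HGI mice 1 to 5 and 6.43, 7.03, 6.69, 6.79 and 7.06 in LGI mice 1 to 5. HGI 1, 2 and 5 lay below every LGI mouse, and HGI 3 and HGI 4 lay within the LGI range. The means were 6.41 ± 0.37 and 6.80 ± 0.26 (SD, n = 5 each), a difference of -0.39 with a 95% interval of -0.76 to -0.028 (limma adjusted p = 0.627, two-sided exact permutation p = 0.0952). A second Nr1i2 probe set gave -0.47 (adjusted p = 0.516). With 1 array left out in turn the difference of the first ran from -0.32 (without HGI 1) to -0.53 (without HGI 3, adjusted p = 0.262). Its unadjusted p was no longer under 0.05 without HGI 1, HGI 2, HGI 5, LGI 2, LGI 4 or LGI 5, or with array weights.

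Nr1i3 encodes CAR, a receptor that is active without a ligand and drives Cyp2b and related genes. Its level was 8.21, 9.33, 9.49, 8.85 and 8.91 in HGI mice 1 to 5 and 9.12, 8.82, 8.96, 8.01 and 9.24 in LGI mice 1 to 5. The groups overlapped, and the lowest values were those of HGI 1 and LGI 4, the pair of arrays that stood apart. The difference was 0.13 (95% interval -0.41 to 0.67; adjusted p = 0.953). It was 0.32 without HGI 1, -0.0039 without HGI 3 and -0.075 without LGI 4, so its direction rested on single mice.

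The genes that CAR and PXR are known to induce lay mostly lower in HGI. Of 18 listed, 16 were measured, 15 had a difference below 0 and the median was -0.57, against -0.025 over all genes. Below 0 were 58.2% of all genes and 62.1% of the well measured genes. The adjusted threshold was passed by 0 of the 16. At an unadjusted p under 0.05, 10 were lower and 0 higher, or 62.5%, against 6.23% of all genes that were lower at that level. Of the 16 targets 14 were well measured, and 701 of 7161 well measured genes were lower at that level. Ranges did not overlap for 5 of the 16 targets, Abcc3, Cyp3a11, Gstm3, Ces2a and Cyp2c55, against 1.67% of all genes with a separate and lower HGI range. Without HGI 1 the count of 10 became 6 and the median -0.48. Without HGI 1 and LGI 4 together it was 9, the median -0.44, and Gstm3 passed (-0.82, adjusted p = 0.0430). This list, like the others, was chosen with earlier results of these data known, so its shares are not independent evidence.

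Abcc3 exports conjugated bile acids and drugs across the basolateral membrane. It read 6.71, 8.88, 8.82, 7.57 and 7.13 in HGI mice 1 to 5 and 9.65, 9.37, 8.94, 9.57 and 9.24 in LGI mice 1 to 5. Every HGI mouse lay below every LGI mouse, with HGI 2 and HGI 3 just under the lowest LGI value. The difference was -1.53 (95% interval -2.32 to -0.75; adjusted p = 0.232), or 2.90-fold lower in HGI. Gstm3, a glutathione transferase, read 9.81, 10.73, 10.56, 10.58 and 10.24 against 11.28, 11.63, 11.36, 12.12 and 11.11. Its groups were apart, with LGI 4 the highest, and the difference was -1.12 (-1.54 to -0.69; adjusted p = 0.0711). The Gstm3 probe set has a suffix of the array design that marks probes shared with related transcripts, so its gene assignment is uncertain; another Gstm3 probe set without that suffix gave -1.26 (adjusted p = 0.137). Cyp2b9, a CAR-inducible P450, read 7.67, 9.27, 7.20, 8.74 and 8.20 against 9.18, 10.09, 9.45, 8.48 and 9.45. HGI 2 and HGI 4 overlapped the LGI range, and the difference was -1.11 (-1.88 to -0.34; adjusted p = 0.459).

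Cyp3a11, the main drug-metabolizing P450 of mouse liver and a PXR target, falls outside the naming rule and was picked after its values were seen. It read 11.84, 12.60, 12.83, 12.45 and 11.81 in HGI mice 1 to 5 and 13.51, 13.30, 13.16, 13.60 and 13.20 in LGI mice 1 to 5. The groups did not overlap, and the difference was -1.05 (95% interval -1.45 to -0.65; adjusted p = 0.0700), or 2.07-fold lower in HGI. Ces2a (-0.75, adjusted p = 0.321) and Cyp2c55 (-0.91, adjusted p = 0.637) complete the non-overlapping group; in Cyp2c55 the LGI 4 array read 8.30 and the other LGI arrays 5.64 to 6.04, and without LGI 4 the difference was -0.42. Alas1, which starts haem synthesis and supplies P450s, overlapped widely between the diets (-0.66, adjusted p = 0.794; -0.31 without HGI 2 and -1.05 without HGI 3). Aldh1a7 was the 1 member above 0 (0.077, adjusted p = 0.910).

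CAR and PXR bind pairs of a 6-base half-site close to AGGTCA. To show the letters, the 250 bases before the start of the RefSeq transcript are printed for the receptor with the lowest difference, Nr1i2, and for 3 of the targets given above, in lower case. Capitals mark AGGTCA, its variant GGGTCA, its variant AGTTCA or its variant GGTTCA, each searched on both strands. Each is written 5′ to 3′ on the strand of the gene in GRCm38.p6. The windows are chr16:38294825-38295074 (minus strand) for Nr1i2, chr5:145879855-145880104 (minus) for Cyp3a11, chr3:107969175-107969424 (minus) for Gstm3 and chr7:26173159-26173408 (plus) for Cyp2b9.
Nr1i2: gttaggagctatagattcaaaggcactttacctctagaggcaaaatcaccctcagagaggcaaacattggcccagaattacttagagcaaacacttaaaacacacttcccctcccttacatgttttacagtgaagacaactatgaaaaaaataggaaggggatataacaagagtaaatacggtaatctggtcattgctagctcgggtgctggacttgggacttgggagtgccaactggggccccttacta
Cyp3a11: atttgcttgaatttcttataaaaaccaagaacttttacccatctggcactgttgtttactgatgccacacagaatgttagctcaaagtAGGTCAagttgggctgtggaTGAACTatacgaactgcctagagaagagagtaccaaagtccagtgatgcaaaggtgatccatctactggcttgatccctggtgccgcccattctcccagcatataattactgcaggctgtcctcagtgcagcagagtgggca
Gstm3: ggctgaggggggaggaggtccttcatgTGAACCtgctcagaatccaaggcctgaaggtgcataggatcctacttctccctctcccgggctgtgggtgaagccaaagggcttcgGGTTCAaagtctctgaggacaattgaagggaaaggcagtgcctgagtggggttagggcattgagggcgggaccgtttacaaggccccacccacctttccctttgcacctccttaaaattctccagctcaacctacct
Cyp2b9: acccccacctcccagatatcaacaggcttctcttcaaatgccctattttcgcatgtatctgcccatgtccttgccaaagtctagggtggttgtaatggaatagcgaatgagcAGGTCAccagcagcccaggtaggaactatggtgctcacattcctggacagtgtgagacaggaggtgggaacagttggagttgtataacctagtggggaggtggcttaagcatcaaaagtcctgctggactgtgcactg

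The Cyp3a11 window held AGGTCA with its first base 162 bases before the start and AGTTCA on the opposite strand 142 bases before it. The Gstm3 window held GGTTCA on each strand, at 223 and 137 bases, and the Cyp2b9 window held AGGTCA at 138 bases; no 2 of these matches overlap. None of the 4 letter strings was in the Nr1i2 window. AGGTCA occurred in 14.0% of all 32851 windows of that length, in 9 of 55 windows (16.4%) of 35 receptor genes (Nr1h2 included) and in 6 of 19 windows (31.6%) of 17 CAR and PXR target genes. Any of the 4 strings occurred in 38.6%, 38.2% and 52.6% of these windows. The 6 target windows with AGGTCA include those of Cyp2b9 and Cyp2b13, which are nearly the same and both hold it at 138 bases. The printed targets all held a match, whereas Cyp2b10, Cyp2c55, Cyp3a13, Alas1, Slco1a4, Gstm1 and Por held none, and Abcc3 had no window. A match describes letters in the window and no binding was measured.

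Nr1h4, Nr0b2 and Nr5a2 form the bile acid circuit. Nr1h4 encodes FXR, the bile acid receptor; it induces Nr0b2, or SHP, a receptor without a DNA-binding domain that represses bile acid synthesis; Nr5a2, or LRH-1, drives the synthesis genes that SHP represses. Nr1h4 read 7.93, 8.32, 8.69, 8.52 and 8.21 in HGI mice 1 to 5 and 8.53, 8.44, 8.55, 8.93 and 8.69 in LGI mice 1 to 5. HGI 1, 2 and 5 lay below all LGI mice, and HGI 3 and 4 within their range. The difference was -0.29 (95% interval -0.59 to 0.0048; adjusted p = 0.671), -0.19 without HGI 1 and -0.12 without HGI 1 and LGI 4. Nr0b2 read 8.60, 8.95, 9.67, 8.59 and 9.39 against 9.27, 8.03, 8.93, 8.46 and 9.18. It varied more between mice of 1 diet than between diets, with an SD of 0.48 in HGI and 0.52 in LGI and a difference of 0.27 (-0.29 to 0.82; adjusted p = 0.883). That difference was 0.078 without LGI 2 and 0.11 without HGI 3.

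Nr5a2 read 8.33, 8.77, 8.58, 8.59 and 8.15 in HGI mice 1 to 5 and 8.57, 8.85, 8.63, 9.25 and 8.40 in LGI mice 1 to 5. LGI 4 was the highest array and the groups overlapped. The difference was -0.26 (95% interval -0.60 to 0.080; adjusted p = 0.762), the other 3 probe sets of Nr5a2 gave -0.24, -0.18 and -0.13, and without LGI 4 the first gave -0.13.

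Of 13 genes known to respond to bile acids through FXR, 0 passed, 5 differed in the positive direction and 8 in the negative, and the median was -0.079. The list mixes genes that FXR induces with bile acid synthesis genes that SHP represses, such as Cyp8b1. Its median and counts of direction therefore do not measure a response to FXR. At an unadjusted p under 0.05, 4 were lower (Abcb11, Slc51b, Baat and Slc27a5) and 1 was higher (Fetub), against 6.23% and 3.07% of all genes. Abcb11, the bile salt export pump and an FXR-induced gene, averaged 10.74 ± 0.29 in HGI and 11.22 ± 0.18 in LGI (SD, n = 5 each), a difference of -0.47 (adjusted p = 0.377). Slc51b, a subunit of the basolateral bile acid exporter, was the 1 target of the 13 with separate ranges (-0.43, adjusted p = 0.272), against 2.17% of all genes. Cyp8b1, the sterol hydroxylase that sets the kind of bile acid made, averaged 11.63 ± 0.32 and 11.07 ± 0.67 (0.56, adjusted p = 0.672), and it read 9.96 in LGI 4 against 10.97 to 11.65 in the other LGI mice; without LGI 4 its difference was 0.28. Fetub, a secreted fetuin, averaged 11.73 ± 0.12 and 11.39 ± 0.23 (0.34, adjusted p = 0.469).

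Nr1h3 encodes LXRalpha, the oxysterol receptor that induces cholesterol efflux and lipogenic genes in hepatocytes and macrophages. It read 7.90, 8.25, 8.09, 8.08 and 7.99 in HGI mice 1 to 5 and 8.18, 7.92, 8.13, 8.49 and 7.92 in LGI mice 1 to 5. LGI 4 was the highest and the other 9 arrays shared 1 range. The difference was -0.066 (95% interval -0.31 to 0.18; adjusted p = 0.945), 0.024 without LGI 4 and 0.066 without HGI 1 and LGI 4. Vdr, the vitamin D receptor, averaged 3.27 in HGI and 3.22 in LGI.

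All 12 listed LXR targets were measured, 0 passed at their first probe set, and the median was 0.047, with 7 above 0 and 5 below. At an unadjusted p under 0.05, 2 targets (Pltp and Fasn) were higher and 2 (Abcg5 and Smpdl3a) lower, against 3.07% and 6.23% of all genes. Pltp, the phospholipid transfer protein, read 10.60, 10.87, 11.13, 11.49 and 11.02 in HGI mice 1 to 5 and 9.82, 10.32, 10.07, 10.15 and 9.48 in LGI mice 1 to 5. All HGI values lay above all LGI values, and the difference was 1.05 (95% interval 0.68 to 1.43; adjusted p = 0.0550), or 2.08-fold higher in HGI. A second Pltp probe set rose by 1.10 (adjusted p = 0.0433), and the first passed without HGI 1 (1.16, adjusted p = 0.0452). Abcg5, which exports sterols into bile, averaged 8.14 ± 0.62 and 8.87 ± 0.20 (-0.73, adjusted p = 0.459). Fasn, fatty acid synthase, averaged 11.91 ± 0.27 and 11.41 ± 0.56 (0.50, adjusted p = 0.655), with LGI 4 at 10.42 and a difference of 0.25 without it.

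Hnf4a encodes a receptor that defines hepatocyte identity and occupies many liver promoters. It read 11.49, 11.73, 11.53, 11.74 and 11.60 in HGI mice 1 to 5 and 11.71, 11.79, 11.75, 11.63 and 11.74 in LGI mice 1 to 5. The groups overlapped, and the mice of each diet lay close together. The difference was -0.11 (95% interval -0.28 to 0.061; adjusted p = 0.819), while the other 3 probe sets gave 0.36, 0.0058 and 0.11 and the mean of all 4 gave 0.091, so the probe sets disagreed in direction. Hnf4g, its paralog of the gut, averaged 2.59 in both diets.

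Of 13 measured genes driven by HNF4alpha, 1 rose and 1 fell past the adjusted threshold, against 0.0824% of all genes, and the median was 0.084. Apoa4, an apolipoprotein of triglyceride-rich particles, rose by 0.85, from 12.73 ± 0.17 in LGI to 13.58 ± 0.21 in HGI (SD, n = 5 each; adjusted p = 0.0211), and its other probe set rose by 1.08 (adjusted p = 0.0126). Cyp2d9, a P450 known for its higher level in males, fell by 1.34, from 7.67 ± 0.37 to 6.32 ± 0.31 (adjusted p = 0.0211). In both genes the ranges were apart. Leaving out 1 array could end these calls: for Apoa4 and Cyp2d9 the adjusted p was 0.0522 and 0.0507 without HGI 4, 0.0540 and 0.0578 without HGI 5, 0.0757 and 0.0696 without LGI 3, and 0.0868 for both without LGI 5, while without LGI 2 only Cyp2d9 missed the threshold (0.0674). Otc, of the urea cycle, also had separate ranges (-0.36, adjusted p = 0.328), which 2.17% of all genes had.

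The retinoid X receptors are the shared partners of FXR, LXR, PXR, CAR and the PPARs. Rxra, the main hepatic form, read 9.31, 9.91, 9.94, 9.69 and 9.66 in HGI mice 1 to 5 and 9.60, 9.57, 9.52, 9.73 and 9.67 in LGI mice 1 to 5. HGI 1 was the lowest of all, HGI 2 and 3 were the highest, and the LGI mice lay between them. The difference was 0.083 (95% interval -0.16 to 0.33; adjusted p = 0.923), 0.21 without HGI 1 and LGI 4 (adjusted p = 0.500) and 0.023 without HGI 3. A second well measured Rxra probe set gave 0.00093. Rxrb averaged 8.30 ± 0.12 in HGI and 8.28 ± 0.091 in LGI, and Rxrg, below 6 log2, averaged 5.66 and 5.58.

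The PPARs are fatty acid receptors. Ppara, which drives hepatic fatty acid oxidation in fasting, read 10.21, 10.93, 10.75, 10.59 and 10.16 in HGI mice 1 to 5 and 10.02, 10.69, 10.37, 10.37 and 10.69 in LGI mice 1 to 5. Both groups covered much the same range. The difference was 0.098 (95% interval -0.26 to 0.45; adjusted p = 0.944), -0.0020 without HGI 2 and -0.0039 without LGI 1. Pparg, the adipogenic form that is also found in macrophages, read 5.33, 5.55, 5.89, 5.94 and 6.25 against 5.52, 5.64, 5.54, 5.88 and 5.62. HGI held both the lowest and the highest value. The difference was 0.15 (adjusted p = 0.884), 0.038 without HGI 5 and 0.33 without HGI 1 and LGI 4 (adjusted p = 0.448); the Kupffer cell markers were higher in the same direction, and their part in it was not tested.

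Ppard, a widely expressed form, read 4.77, 4.83, 4.71, 5.05 and 5.34 in HGI mice 1 to 5 and 4.34, 4.63, 4.63, 4.54 and 4.85 in LGI mice 1 to 5. LGI 5 lay within the HGI range and the other 4 LGI mice below it. The difference was 0.34 (95% interval 0.066 to 0.62; limma adjusted p = 0.539, two-sided exact permutation p = 0.0476), the highest of the 37. Its unadjusted p was no longer under 0.05 without HGI 5 or LGI 1. The level was below 6 log2, and a second Ppard probe set, also below 6 log2, gave -0.026.

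Of 19 listed PPARalpha targets 16 were measured and 0 passed; 11 were below 0, 5 above, and the median was -0.24, or -0.067 without HGI 1 and LGI 4. Of all genes 58.2% were below 0. At an unadjusted p under 0.05, 6 of the 16 were lower and 2 (Pdk4 and Fgf21) higher, against 6.23% and 3.07% of all genes. Cyp4a14, which begins omega-oxidation, read 6.77, 6.92, 8.80, 8.85 and 6.99 in HGI mice 1 to 5 and 9.91, 9.83, 8.24, 11.67 and 9.12 in LGI mice 1 to 5. HGI 3 and 4 exceeded LGI 3, and LGI 4 was the highest of all. The difference was -2.09 (95% interval -3.34 to -0.84; adjusted p = 0.338), and over the arrays left out in turn it ran from -2.47 to -1.61. Acot1, an acyl-CoA thioesterase, averaged 7.43 ± 0.77 and 8.50 ± 0.54 (-1.08, adjusted p = 0.436), and Acaa1b, a peroxisomal thiolase, averaged 12.16 ± 0.54 and 13.06 ± 0.16 with separate ranges (-0.90, adjusted p = 0.196). Ehhadh was the other target with separate ranges (-0.83, adjusted p = 0.424), which 2.17% of all genes had. Cpt1a, the gate of mitochondrial oxidation, averaged 10.54 and 10.60 (-0.058, and 0.047 without LGI 4). Pdk4, the fasting-induced inhibitor of pyruvate dehydrogenase, and Fgf21, a fasting hormone, lay the other way (0.68, adjusted p = 0.413, and 0.64, adjusted p = 0.508), both from levels below 6 log2.

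**Figure D2:**
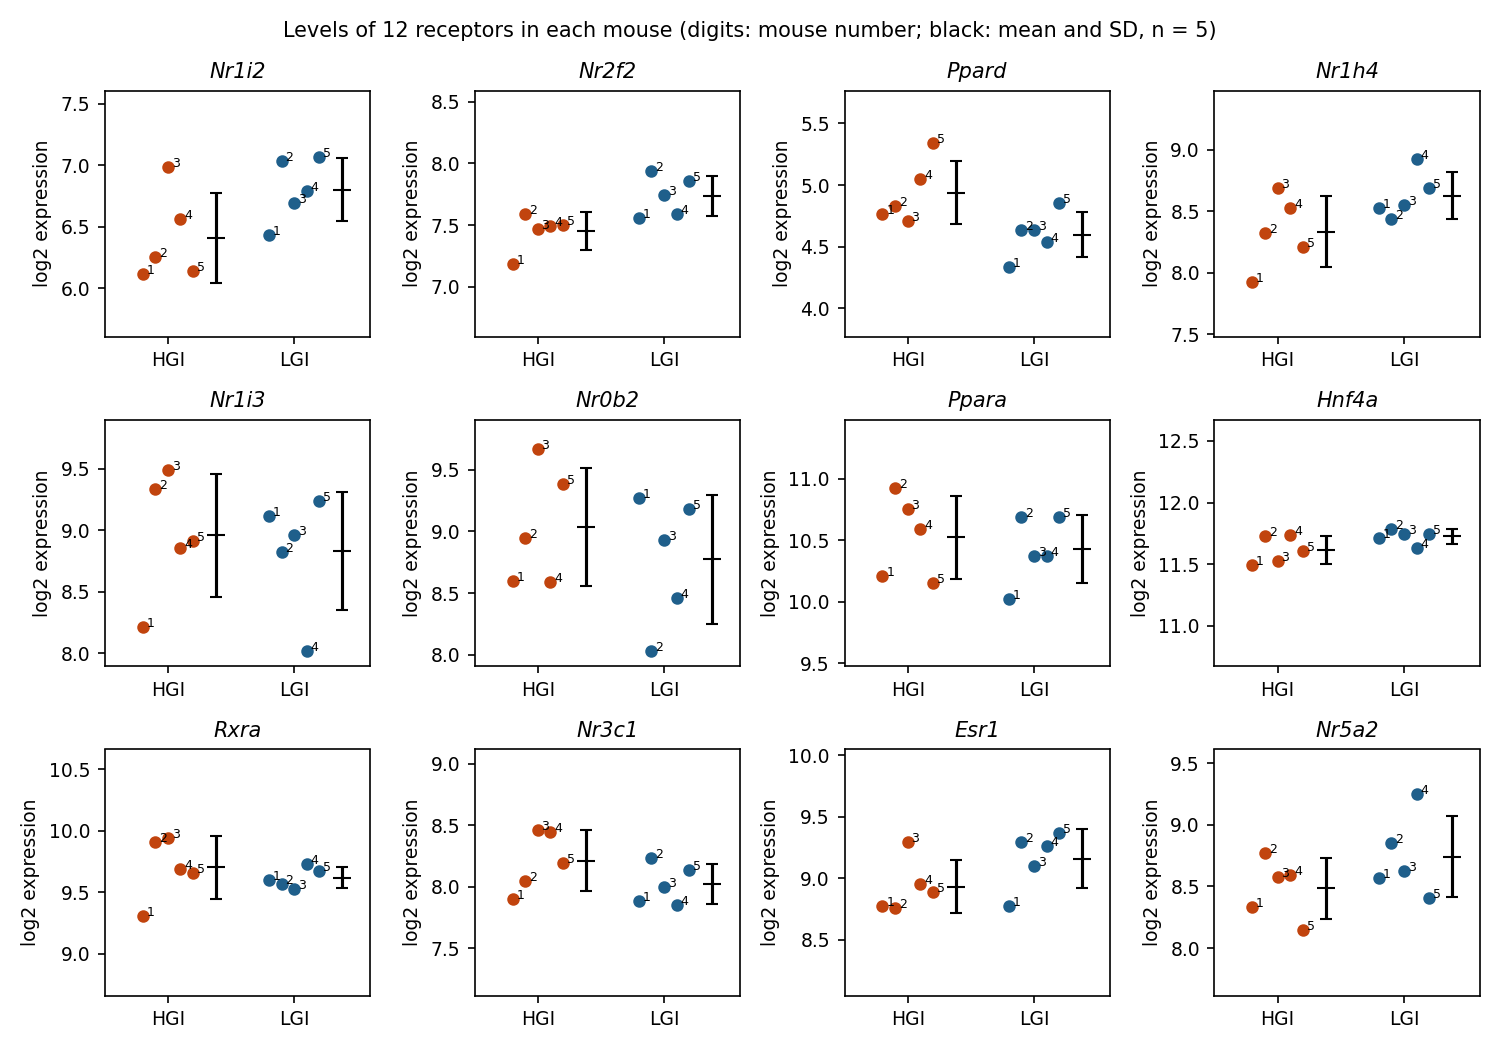
Log2 expression of 12 receptors in each of 10 mice, HGI on the left and LGI on the right of each panel, with the mouse number beside each point and the mean and SD (n = 5) as black bars; the vertical axes do not start at 0 and all span the same number of log2 units. The groups overlap in all 12 panels, and the spread within a diet is wide for Nr1i3 and Nr0b2 and narrow for Hnf4a.

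The retinoic acid receptors bind the active form of vitamin A. Rarg averaged 6.21 ± 0.065 in HGI and 6.07 ± 0.15 in LGI (difference 0.13, adjusted p = 0.782; 0.085 without LGI 4), Rara averaged 4.74 and 4.84, and Rarb averaged 5.42 in both diets with an SD of 0.44 and 0.38. Rora, a constitutive receptor linked to the clock and to lipid metabolism, read 7.77, 8.83, 8.52, 8.15 and 8.51 in HGI mice 1 to 5 and 8.14, 8.79, 8.21, 8.23 and 8.45 in LGI mice 1 to 5. HGI 1 was the lowest and HGI 2 the highest. The difference was -0.0074 (95% interval -0.40 to 0.38; adjusted p = 0.997), and it was 0.14 without HGI 1 and 0.10 without LGI 2, so no direction held.

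Of 12 measured genes that make, bind or break down receptor ligands, 0 passed and the median was 0.027. An unadjusted p under 0.05 was found for 3 (Aldh1a1, Cyp26a1 and Cyp26b1), against 9.30% of all genes. Separate ranges were found for 1, against 2.17% of all genes. Aldh1a1, which oxidizes retinal to retinoic acid, read 11.57, 11.72, 12.16, 12.04 and 11.69 in HGI mice 1 to 5 and 12.38, 12.51, 12.36, 13.17 and 12.45 in LGI mice 1 to 5. The ranges were apart and LGI 4 stood above its group. The difference was -0.74 (95% interval -1.09 to -0.40; adjusted p = 0.161), and -0.59 at its smallest over the arrays left out in turn. Cyp26a1, which clears retinoic acid and is itself induced by it, averaged 7.32 ± 0.63 and 8.04 ± 0.60 (-0.73, adjusted p = 0.624). Cyp26b1, its paralog, lay the other way (0.51, adjusted p = 0.635). Lrat, which stores retinol as esters and marks stellate cells, averaged 6.52 ± 0.47 and 6.22 ± 0.44 (0.31, adjusted p = 0.828), with HGI 4 at 7.35 against 6.24 to 6.44 in the other HGI mice and a difference of 0.10 without it. Of 7 measured retinoic acid targets, a list that shares Cyp26a1, Cyp26b1 and Lrat with the ligand list, 0 passed and the median was -0.041. Of these 7 targets, 2 had an unadjusted p under 0.05, against 9.30% of all genes. Tgm2, a transglutaminase, gave -0.31 (adjusted p = 0.908) and 0.10 without LGI 4.

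The thyroid hormone receptors are Thra and Thrb, of which Thrb is the main hepatic form. Thrb read 3.73, 3.80, 3.87, 3.92 and 3.95 in HGI mice 1 to 5 and 4.14, 3.71, 3.90, 3.99 and 3.85 in LGI mice 1 to 5. All values lay close to the medians of the arrays (3.91 to 3.97), a dim level, and the groups overlapped. The difference was -0.066 (95% interval -0.26 to 0.13; adjusted p = 0.923), and -0.010 without LGI 1. Thra averaged 6.18 ± 0.13 and 6.06 ± 0.16 (0.11, adjusted p = 0.853; 0.063 without LGI 4). Of 9 thyroid hormone targets 0 passed, 7 were above 0, against 7611 of 18193 genes, and the median was 0.037. An unadjusted p under 0.05 was found for 1 (Gpd2), against 9.30% of all genes. Gpd2, the mitochondrial glycerol phosphate dehydrogenase, averaged 8.87 ± 0.26 and 8.42 ± 0.22 (0.45, adjusted p = 0.412), and Me1, malic enzyme, 10.49 ± 0.53 and 10.23 ± 0.48 (0.27, adjusted p = 0.883), which was 0.071 without HGI 2 and 0.080 without LGI 4. Bcl3, which is also an acute phase gene, averaged 7.19 ± 0.56 and 7.39 ± 0.95 (-0.20, adjusted p = 0.952); LGI 4 read 9.07, and without it the difference was 0.21.

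Among the steroid receptors, Nr3c1 encodes the glucocorticoid receptor, which drives gluconeogenesis and amino acid breakdown. It read 7.90, 8.05, 8.47, 8.45 and 8.19 in HGI mice 1 to 5 and 7.89, 8.24, 7.995, 7.85 and 8.13 in LGI mice 1 to 5. HGI 3 and 4 lay above all LGI mice and the other 3 within their range. The difference was 0.19 (95% interval -0.073 to 0.45; adjusted p = 0.784) and 0.13 without HGI 3, while a second probe set gave -0.044. Esr1, the oestrogen receptor of hepatocytes, read 8.77, 8.76, 9.29, 8.95 and 8.89 against 8.78, 9.30, 9.10, 9.26 and 9.37. HGI 1 and 2 were the lowest, next to LGI 1, and HGI 3 lay among the LGI mice. The difference was -0.23 (-0.51 to 0.049; adjusted p = 0.741), and the 2 other probe sets, both below 6 log2, gave -0.30 and 0.034. Nr3c2, the mineralocorticoid receptor, averaged 5.42 ± 0.31 and 5.67 ± 0.13 (-0.24, adjusted p = 0.737; -0.13 without HGI 2), and Pgr, the progesterone receptor, 2.84 and 2.96.

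All 14 glucocorticoid targets were measured and 0 passed at their first probe set. Below 0 were 11 of them, against 58.2% of all genes, and the median was -0.21. At an unadjusted p under 0.05, 2 targets (Dusp1 and Cdkn1a) were higher and 1 (Tdo2) lower, against 3.07% and 6.23% of all genes. Ranges were separate for Dusp1 and Tdo2, against 2.17% of all genes. Dusp1, a phosphatase that ends MAP kinase signals, read 7.60, 9.15, 8.19, 7.80 and 7.71 in HGI mice 1 to 5 and 7.23, 7.01, 6.92, 7.40 and 6.32 in LGI mice 1 to 5. Every HGI mouse lay above every LGI mouse, and the difference was 1.11 (95% interval 0.53 to 1.70; adjusted p = 0.246). Tdo2, which begins tryptophan breakdown, gave -0.59 with separate ranges (adjusted p = 0.133), and its other 2 probe sets fell by 0.82 and 0.79 (adjusted p = 0.0302 and 0.0458). Tat, a classical target, averaged 12.53 ± 0.22 and 12.78 ± 0.20 (-0.26, adjusted p = 0.672). The differences of Lcn2 (-0.92, adjusted p = 0.902) and Mt2, a metallothionein (-0.78, adjusted p = 0.805), rested on LGI 4: without that array they were 0.30 and -0.27.

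The oestrogen-related receptors promote mitochondrial genes and have no known steroid ligand. Esrra averaged 7.01 ± 0.23 in HGI and 7.22 ± 0.098 in LGI, a difference of -0.21 (95% interval -0.45 to 0.017; adjusted p = 0.701). It was -0.29 without HGI 3 (adjusted p = 0.451). Esrrb (5.00 and 5.03) and Esrrg (3.78 and 3.70) lay below 6 log2. The NR4A receptors are immediate early genes induced by hormones such as glucagon. Nr4a1, Nr4a2 and Nr4a3 all lay below 6 log2, with differences of 0.13, 0.10 and 0.16 and adjusted p of 0.884, 0.895 and 0.793; that of Nr4a1 was 0.042 without LGI 4 and that of Nr4a2 0.034 without HGI 5.

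The last group holds orphan receptors without an established natural ligand. Nr2f2 encodes COUP-TFII, known from veins, lymphatic vessels and stroma as well as hepatocytes. It read 7.19, 7.59, 7.47, 7.49 and 7.50 in HGI mice 1 to 5 and 7.56, 7.94, 7.75, 7.59 and 7.85 in LGI mice 1 to 5. HGI 2 lay within the LGI range, at its lower end, and the other 4 HGI mice lay below every LGI mouse. The means were 7.45 ± 0.15 and 7.74 ± 0.16 (SD, n = 5 each), a difference of -0.29 with a 95% interval of -0.51 to -0.071 (limma adjusted p = 0.508, two-sided exact permutation p = 0.0238). It was -0.22 without HGI 1, and the 5 other Nr2f2 probe sets, all below 6 log2, gave -0.058 to -0.20. The endothelial markers were higher in HGI for 10 of 10 genes, and of the stellate cell markers 6 were higher and 4 lower. The part of these cells in the Nr2f2 difference was not tested.

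Nr2f6, known as EAR2, averaged 8.82 ± 0.31 in HGI and 8.83 ± 0.13 in LGI (-0.016, adjusted p = 0.991; 0.11 without HGI 1), and Nr2f1, or COUP-TFI, was dim at 2.81 and 2.65. The testicular receptors Nr2c1 (6.79 ± 0.17 and 6.63 ± 0.12; 0.15, adjusted p = 0.776) and Nr2c2 (8.03 ± 0.21 and 7.85 ± 0.22; 0.18, adjusted p = 0.805, and 0.11 without LGI 4) both had differences above 0, and a second well measured Nr2c1 probe set gave 0.25. Nr6a1, the germ cell nuclear factor, averaged 5.25 and 5.24.

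Which receptors crossed an unadjusted p of 0.05 changed with the mice included. Leaving out 1 array gave between 1 and 7 such receptors. Without HGI 3 there were 7 (Nr1i2, Nr1h4, Nr3c2, Esr1, Esrra and Nr2f2 lower and Ppard higher), without HGI 4 there were 5 (Nr1i2, Nr1h4, Nr3c2 and Nr2f2 lower and Ppard higher), and without HGI 5 only Nr2f2 remained. Without HGI 1 and LGI 4 together there were 5, or 13.5% against 10.9% of all genes. Of these, Rxra, Ppard, Pparg and Nr2c1 were higher and Nr2f2 lower, and the median over the 37 was 0.069. Dropping only HGI 1 left 10.8% of receptors and 9.71% of all genes at that p. Dropping only LGI 4 left 5.41% and 9.23%. For the other arrays no share over all genes is given here. Whether their counts are particular to the receptors was not tested. In all these settings the number past the adjusted threshold was 0.

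**Figure D3:**
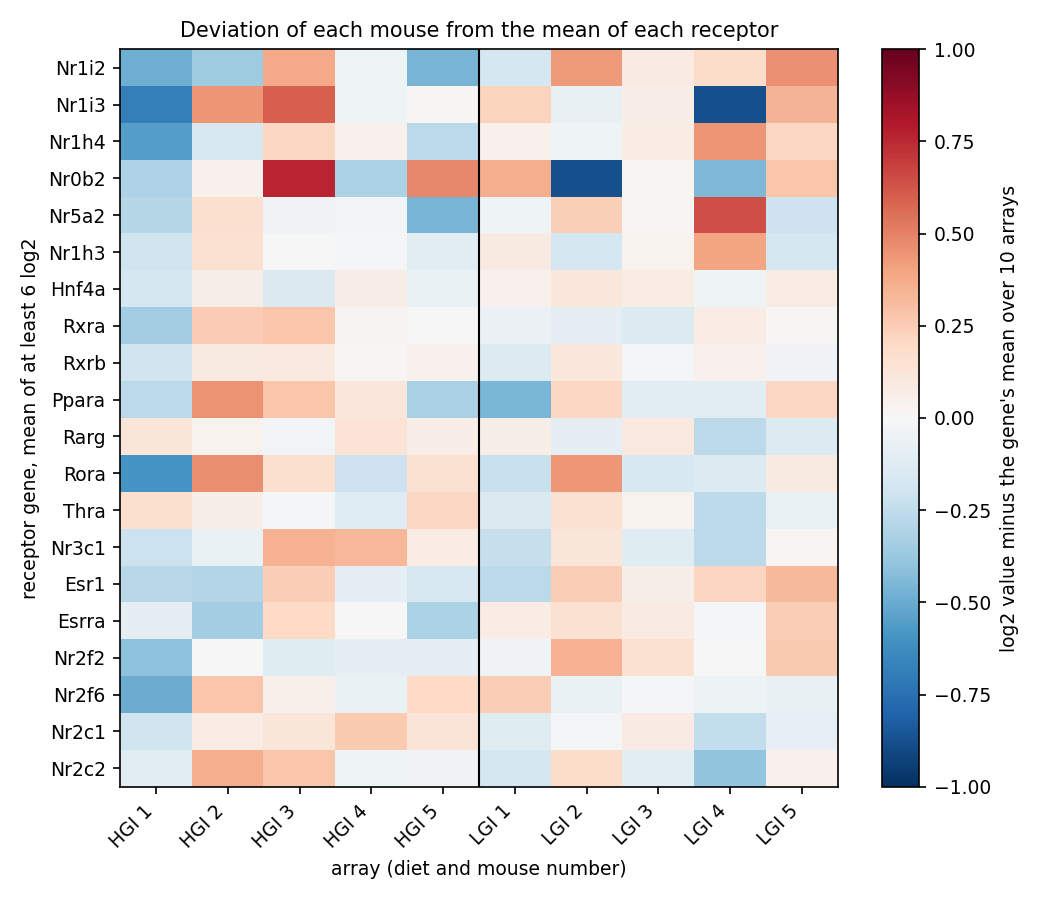
Deviation of each array from the gene's mean over 10 arrays, in log2 units, for the 20 receptors with a mean of at least 6 log2 (rows) on the HGI arrays 1 to 5 and the LGI arrays 1 to 5 (columns); blue is below and red above the mean. The column of HGI 1 is blue for most receptors, and single strong cells are Nr1i3 in LGI 4 and Nr0b2 in LGI 2.

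The receptors work through coregulators. Of 12 coactivator genes 0 passed, the median was 0.022 and 1 (Carm1) had an unadjusted p under 0.05, against 9.30% of all genes. Ncoa4, a coactivator that also carries ferritin to breakdown, averaged 9.88 ± 0.22 in HGI and 9.63 ± 0.26 in LGI (0.26, adjusted p = 0.711; 0.16 without LGI 4), and Carm1, an arginine methyltransferase, 7.38 ± 0.19 and 7.15 ± 0.097 (0.22, adjusted p = 0.629). Ppargc1a, the fasting-induced partner of PPARalpha, HNF4alpha and the ERRs, read 6.96, 7.64, 7.99, 6.90 and 6.21 in HGI mice 1 to 5 and 7.52, 7.63, 7.84, 7.06 and 6.60 in LGI mice 1 to 5. Its spread within a diet (SD 0.69 and 0.50) exceeded its difference of -0.19 (adjusted p = 0.940). Of 7 measured corepressor genes 0 passed, 0 had an unadjusted p under 0.05, the median was -0.031, and all differences lay between -0.18 and 0.039; Lcor gave -0.18 (-0.072 without HGI 1), Tbl1x -0.050 and Sin3a 0.039 (adjusted p = 0.842, 0.960 and 0.965).

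Of 11 receptors of the superfamily outside the 38, 7 were measured, 2 were well measured and 0 passed. Of the 7 measured, 1 (Nr1d2) had an unadjusted p under 0.05, against 9.30% of all genes. The well measured ones are Nr1d1 and Nr1d2, the REV-ERB repressors of the clock. Nr1d2 averaged 9.47 ± 0.40 in HGI and 9.89 ± 0.27 in LGI (-0.42, adjusted p = 0.624), and Nr1d1 6.49 ± 0.66 and 6.76 ± 0.36 (-0.27, adjusted p = 0.885; -0.054 without HGI 3 and -0.48 without HGI 2). Both are rhythmic genes, and the labels do not state the hour of tissue collection.

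**Figure D4:**
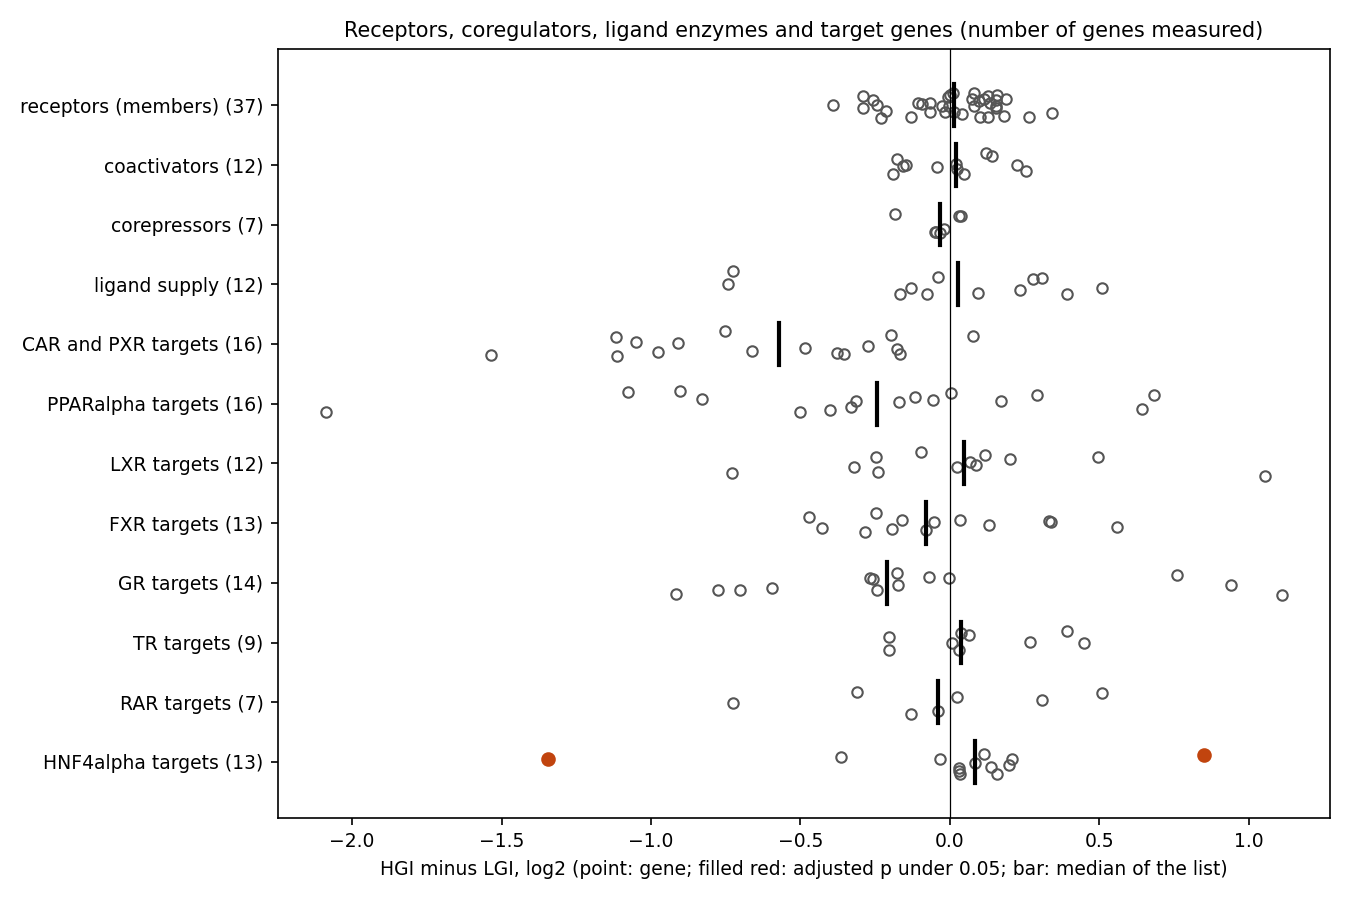
Difference HGI minus LGI in log2 units for each gene of 12 groups (rows): the receptors, their coregulators, ligand enzymes and known target genes, with the number of genes measured in brackets. All groups were chosen with earlier results of these data known. Each circle is a gene, filled red where the adjusted p is under 0.05, and the black bar is the group's median; the receptors lie between -0.39 and 0.34, while the CAR and PXR targets reach -1.53 with a median of -0.57.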

How the data were processed

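Per the labels' protocols, liver RNA was purified on RNeasy columns and biotin-labelled by a one-cycle method. The authors deposited 1 log2 value per probe set and array. The submitters' processing notes name RMA (background correction, normalization between arrays and summary of each set's probes) and R 2.6.1. The 64 control probe sets were left out and 45037 tested, with no filter on dim signal. HGI was compared with LGI by limma 3.58.1 (lmFit and eBayes) in R 4.3.3, with Benjamini-Hochberg adjustment over all probe sets; every adjusted p is limma's. Single receptors were also tested by a two-sided exact permutation over 252 assignments of the arrays, whose smallest p is 0.00794.

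Symbols came from the platform annotation: 34945 probe sets had 1 symbol, 932 several and 9160 none, and the several-symbol sets were left unnamed. Promoter windows are from RefSeq (GRCm38.p6). The receptors and all gene lists were chosen with earlier results of these data known. Values of every array are given for receptors at an unadjusted p under 0.05 and for 14 receptors of hepatic metabolism; from each list, the genes past the threshold and up to 3 well measured genes of the largest difference are named. Others named were chosen after their values were seen. The labels number the mice, and p-values measure the spread between these 10 arrays, 5 per diet, whose number limits the precision. The procedure was tested on simulated data with independent noise, no array that stands apart and differences larger than those of the receptors. That test does not cover differences as small as those of the receptors.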

Additional observations from a re-analysis of the deposited data

Results flagged for a closer look

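Each of the following groups of 5 mice held 1 array whose gap to its neighbour, as a share of the group's range, exceeded Dixon's critical value of 0.71. Of 140 groups examined, 11 did so. These were 2 of the 74 groups of receptors and 9 of the groups of 33 other genes, at 2 groups per gene. For a single group taken alone, chance gives about 1 in 20. That rate does not hold for the other genes, which were named for passing the threshold or for large differences. All groups of a diet also share the same arrays. For Esrrb in HGI the share was 0.793, with HGI 1 at 5.42 and the others at 4.84 to 4.96. This Esrrb probe set has a suffix that marks probes shared with other transcripts. In the other Esrrb probe sets, both dimmer, HGI 1 read 3.38 and lay within the range of the other HGI mice. For Nr2f6 in LGI it was 0.834, with LGI 1 at 9.07 and the others at 8.75 to 8.81.

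Array HGI 1 was also the lowest of its group for the coactivator gene Ncoa4 (share 0.868, 9.50 against 9.94 to 10.01) and the corepressor gene Tbl1x (0.863, 7.44 against 7.92 to 7.99). Array LGI 4 was apart for 5 genes. It was the highest for Aldh1a1 (0.812, 13.17 against 12.36 to 12.51), Lcn2 (0.815, 13.38 against 6.65 to 7.89), Mt2 (0.713, 13.01 against 9.85 to 10.76) and Bcl3 (0.795, 9.07 against 6.71 to 7.20), and the lowest for Fasn (0.875, 10.42 against 11.55 to 11.71). The clock receptor Nr1d1 was low in LGI 5 (0.775, 6.14 against 6.85 to 7.05), and Lrat was high in HGI 4 (0.813, 7.35 against 6.24 to 6.44).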

How the results depend on the processing

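The number of receptors past the adjusted threshold was 0 in all 19 alternatives, with a smallest adjusted p between 0.262 and 0.732. Over all probe sets, 29 passed (17 higher, 12 lower); this became 63 after quantile normalization again, 63 after median centring, 64 with array weights, 58 without HGI 1 and LGI 4, and 5 to 49 with 1 array left out (5 without LGI 2, LGI 3 or LGI 5, 7 without HGI 5, 15 without HGI 4, 43 without LGI 4 and 49 without HGI 3). Receptors with an exact permutation p under 0.05 numbered 2, and no share over all genes was computed for this test. They were 1 under the filter at 6 log2, 1 with the mean of all probe sets, 0 without HGI 1 and LGI 4, and 1 to 6 with 1 array left out. Without HGI 1 and LGI 4 fewer assignments exist, and only receptors with separate ranges can fall under 0.05. That count of 0 therefore does not show that the result depends on these mice. The median over the receptors ranged from -0.0049 to 0.069. Receptors at an unadjusted p under 0.05 numbered 3, and 6 after quantile normalization again, or 16.2% against 10.2% of all genes. In that setting 2 of the 16 CAR and PXR targets passed the adjusted threshold, against 37 of 18193 genes.

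Some differences changed sign. Rora, at -0.0074, was 0.031 after quantile normalization, 0.027 after centring, 0.090 with array weights, 0.10 without HGI 1 and LGI 4, 0.0011 with the mean of probe sets and -0.12 to 0.14 with 1 array left out. Without HGI 1 and LGI 4, Nr1h3 was 0.066, Tbl1x 0.025, Bcl3 0.076 and Tgm2 0.10; with the mean of probe sets, Hnf4a was 0.091 and Sin3a -0.060. With 1 array left out, the ranges were -0.075 to 0.32 for Nr1i3, -0.12 to 0.024 for Nr1h3, -0.0039 to 0.19 for Ppara, -1.38 to 0.30 for Lcn2, -0.40 to 0.043 for Ppargc1a, -0.37 to 0.21 for Bcl3, -0.027 to 0.083 for Sin3a, -0.085 to 0.054 for Tbl1x and -0.51 to 0.10 for Tgm2. The cause was not tested.

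Mice that share a replicate number in the 2 diets did not deviate together (correlations -0.073, 0.061, -0.064, -0.18 and -0.070), so the numbers were not taken as pairs. With the replicate number as a block, 33 probe sets and 0 receptors passed. With this block, 5 receptors (13.5%) had an unadjusted p under 0.05, against 9.25% of all genes, and the median over receptors was 0.014. Gstm3 and Pltp passed, and Apoa4 and Cyp2d9 did not (adjusted p = 0.0656 and 0.0662).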
